A study of Mus musculus with 6 samples.

Results

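The cells described here were fibroblasts of the injured rotator cuff enthesis, the insertion of tendon into bone, that carried RNA of both Aspn and Postn. They were selected on measured unique molecular identifiers (UMIs, 1 per captured RNA molecule) and numbered 3611 of the 64599 cells that passed quality limits of 2000 UMIs and 200 genes as minimum and 10% mitochondrial UMIs as maximum. A cell entered the fibroblast gate when Col1a1, Col1a2 and Col3a1 together held at least 1% of its UMIs, S100a8 and S100a9 together held under 1%, and Ptprc and Cdh5 had 0 UMIs. Among these fibroblasts, a cell was chosen by at least 3 UMIs each of Aspn and Postn. It also needed under 5 UMIs of Prg4, under 10 of Cxcl5 and Saa3 together, 0 of Tnmd, under 5 of Col2a1, under 5 of Bglap, Bglap2 and Ibsp together, 0 of Pi16 and Dpp4, and under 2 of Mki67 and Top2a together. The 9368 cells of the fibroblast gate that failed any of these cuts are called the other fibroblasts below.

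Single cell RNA was sequenced at 7 days postinjury (dpi), after transection and suture repair of the supraspinatus tendon in mice aged 12 to 14 weeks, in 3 libraries from wild-type C57BL/6 controls and 3 libraries from Nlrp3-/- mice, a germline knockout of the NLRP3 inflammasome sensor in every cell. Uninjured tissue was not analysed here, and both groups had the injury and repair. By the paper's methods, the wild-type mice came from the Shanghai Laboratory Animal Center and the Nlrp3-/- mice from Cyagen. The source of the animals and the genotype therefore cannot be told apart either. Entheses were pooled, and how many animals went into each library and of which sex was not stated in the sources used here, so p-values measure the spread between libraries. RNA of sex-linked genes, given below, divided the libraries as the genotype did, so sex and genotype cannot be told apart in any comparison of the groups. The titles name Nlrp3 for all 3 knockout libraries, although the genotype fields of replicates 2 and 3 name Nlrp4 and Nlrp5.

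Aspn encodes asporin, a small leucine-rich proteoglycan that binds collagen and restrains TGF-beta signalling. Postn encodes periostin, a matricellular protein of healing connective tissue that links collagen with other matrix proteins. In injured tendon, fibroblasts that make such proteins lay down the provisional collagenous matrix between tendon and bone. C1qtnf3 (a secreted C1q and TNF related protein), Mest (an imprinted gene of growing mesenchyme) and Cthrc1 (a secreted glycoprotein of collagen-producing fibroblasts) had been proposed with Aspn and Postn as markers of these cells.

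The wild-type libraries gave 301, 501 and 334 Aspn Postn fibroblasts, and the Nlrp3-/- libraries gave 1166, 368 and 941. Aspn and Postn themselves did little to narrow the fibroblasts down. Both reached 3 UMIs in 81.0%, 78.9% and 90.4% of wild-type fibroblasts and in 78%, 77.3% and 92.8% of Nlrp3-/- fibroblasts. Most of the narrowing came from the cuts that remove other fibroblast programs. At least 10 UMIs of Cxcl5 and Saa3, a neutrophil-attracting chemokine and an acute phase protein, were found in 28.4%, 44.5% and 12.6% of wild-type fibroblasts but in 4.61%, 8.25% and 8.27% of Nlrp3-/- fibroblasts. At least 1 UMI of Tnmd, a membrane protein of tendon cells, was found in 18.8%, 16.2% and 41.7% of wild-type fibroblasts and in 30.6%, 42.2% and 36.1% of Nlrp3-/- fibroblasts. Prg4 reached 5 UMIs in 27.8%, 18.8% and 26.1% of wild-type fibroblasts and in 6.79%, 27.4% and 26.7% of Nlrp3-/- fibroblasts. These cuts therefore took different cells from different libraries, and wild-type replicate 3 lay with the Nlrp3-/- libraries for Tnmd and nearest to them for Cxcl5 and Saa3.

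**Figure D1:**
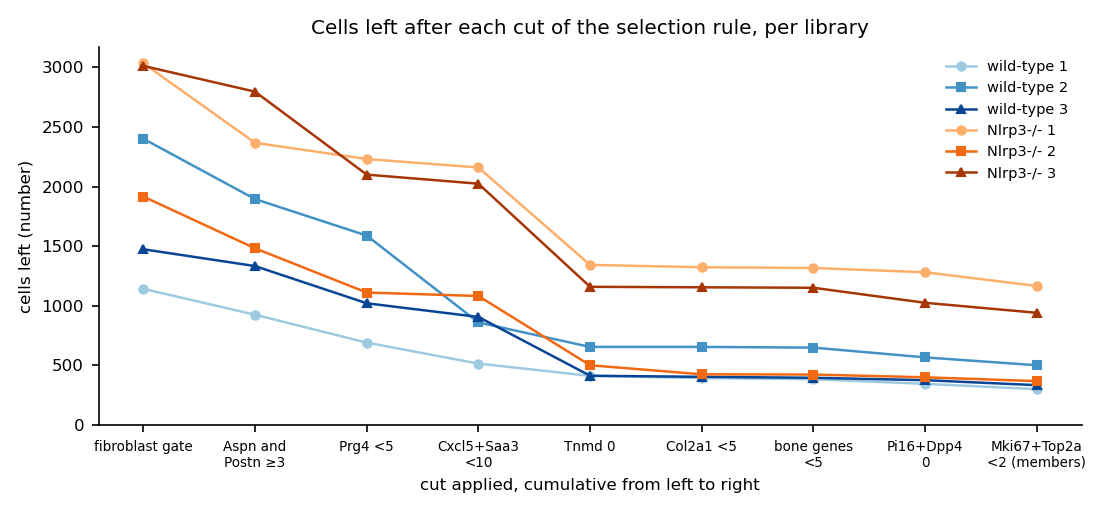
Number of fibroblasts left after each cut in turn, 1 line per library, for the 3 wild-type and 3 Nlrp3-/- libraries. The lines start at 1142 to 3034 fibroblasts and end at 301 to 1166 Aspn Postn fibroblasts. Wild-type replicate 2 falls from 1589 to 860 cells at the Cxcl5 and Saa3 cut, and wild-type replicate 3 from 906 to 413 at the Tnmd cut.

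As a share of fibroblasts, these cells made up 26.4%, 20.9% and 22.7% in the wild-type libraries and 38.4%, 19.2% and 31.2% in the Nlrp3-/- libraries. The Nlrp3-/- libraries held both the highest and the lowest share, so the groups overlapped. The means were 23.3% ± 2.80 (SD, n = 3) in wild-type and 29.6% ± 9.71 (SD, n = 3) in Nlrp3-/- libraries, and the difference did not exceed the spread (exact two-sided permutation test, p = 0.4, where 0.1 is the smallest value 3 against 3 libraries can give). As a share of all cells the values were 2.99%, 4.03% and 4.0% in wild-type and 10.2%, 3.62% and 7.71% in Nlrp3-/- libraries. Their means were 3.67% ± 0.590 and 7.19% ± 3.34 (SD, n = 3 each, exact two-sided permutation test, p = 0.3). The lowest and highest shares of fibroblasts had Wilson 95% intervals, which cover counting error only, of 17.5% to 21% and 36.7% to 40.2%. A share of barcodes cannot tell more cells of a kind from better recovery of that kind, and in the sums over cells used below fewer cells and less RNA per cell cannot be told apart either. Nlrp3-/- replicate 1 was also the shallowest library.

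Single shares moved by over 1.5 times with the handling of depth. With every cell thinned to 2000 UMIs before the choice, the shares of fibroblasts were 23.6%, 20.3% and 39.0% in wild-type and 40.7%, 22.5% and 43.2% in Nlrp3-/- libraries. Wild-type replicate 3 then went from 22.7% to 39.0% of fibroblasts and from 4.0% to 7.84% of all cells. The cuts kept their numbers of UMIs, so the upper limits, such as 0 of Tnmd, were easier to pass after thinning. The thinned shares can therefore include cells that the choice removes at full depth. Among cells of 4000 to 12000 UMIs wild-type replicate 2 was at 34.8% and Nlrp3-/- replicate 2 at 33.7%. The exact permutation p for the share of fibroblasts was 0.3 after thinning and 0.5 within this band, and the groups overlapped in both. Of the Aspn Postn fibroblasts of Nlrp3-/- replicate 1, 731 were within 0.1% of UMIs in macrophage markers, which is 24.1% of all 3034 fibroblasts of that library, a denominator that still holds its other marker-rich cells.

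The median depth of the Aspn Postn fibroblasts was 12041, 11152 and 14711 UMIs in wild-type libraries and 4245, 11518 and 11889 UMIs in Nlrp3-/- libraries. Mitochondrial UMIs were at a median of 2.08% to 3.19%. Nlrp3-/- replicate 1 also stood apart in markers of other cells: 435 of its 1166 Aspn Postn fibroblasts had over 0.1% of their UMIs in 8 macrophage markers, against 2 to 19 cells in each other library. Those 435 cells had a median of 2659 UMIs. Over the 3 libraries with enough such cells, the Fc receptor Fcgr3 and the complement gene C1qc were among their leading genes. Only Nlrp3-/- replicate 1 had more than 19 such cells, and their choice on macrophage markers favours such genes. Without the cells over this limit, 23 genes were called in the comparison of genotypes given below, against 16 with them. Only 2 barcodes were shared by the Aspn Postn fibroblasts of any pair of libraries. The whole libraries held 97042713 to 134901999 UMIs, and over the member cells alone they held 3803872 to 11702655 UMIs.

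All 5 proposed markers were expressed, Aspn and Postn by the choice. Levels are given as CPM, UMIs of a gene scaled to a fixed total of UMIs, over the summed cells of a library. Aspn was at 1899, 1928 and 3190 CPM in wild-type and at 3065, 3237 and 3210 CPM in Nlrp3-/- libraries. Postn was at 4906, 4671 and 6615 CPM in wild-type and at 6632, 6529 and 6680 CPM in Nlrp3-/- libraries. These values describe the choice of the cells, and nothing is read from them.

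C1qtnf3 was at 514, 594 and 1590 CPM in wild-type libraries and at 1541, 1449 and 1650 CPM in Nlrp3-/- libraries. Wild-type replicates 1 and 2 stood low and replicate 3 fell among the Nlrp3-/- values. The log2 fold change was 0.69 (SE 0.38, edgeR adjusted p = 0.41). Without wild-type replicate 3 it was 1.35 with an edgeR adjusted p of 0.013. Mest was at 988, 879 and 1238 CPM in wild-type and at 1508, 870 and 1368 CPM in Nlrp3-/- libraries, with overlapping groups. Cthrc1 was at 1073, 1108 and 2190 CPM in wild-type and at 1645, 1501 and 1798 CPM in Nlrp3-/- libraries, also overlapping. Their edgeR adjusted p-values were 0.72 and 0.89.

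Detection was compared after thinning every cell to 2000 UMIs. C1qtnf3 was then expected in 43.2% to 75.6% of the Aspn Postn fibroblasts of a library, Mest in 47.7% to 70.6% and Cthrc1 in 65.4% to 81.4%. Without thinning, the ranges were 69.4% to 87.3%, 65.8% to 81.9% and 81.8% to 91.8%. In S100a8-rich cells of the same libraries, which should lack these genes and had median depths of 3553 to 5207 UMIs, the thinned shares were 0.768% to 6.46%, 1.18% to 6.38% and 1.29% to 6.03%. Detection in the Aspn Postn fibroblasts was above that background in every library.

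C1qtnf3 and Cthrc1 were not higher in summed level in most libraries than in the other fibroblasts, and Mest was only moderately so. Within a library, the level of C1qtnf3 was higher in them than in the other fibroblasts in 2 of 6 libraries (median log2 ratio -0.12), Mest in 5 of 6 (median 0.50) and Cthrc1 in 3 of 6 (median -0.07). By the share of cells with a UMI, without thinning, Mest was found in more of the Aspn Postn fibroblasts in 6 of 6 libraries, for example at 65.8% against 60.5% in Nlrp3-/- replicate 2 and 68.5% against 48.8% in wild-type replicate 2. The share with C1qtnf3 was higher in 4 of 6 libraries. The contrast depended on which fibroblasts stood on the other side. Against fibroblasts with under 3 UMIs of both Aspn and Postn, the median log2 ratios of levels were 3.50 for C1qtnf3, 4.28 for Mest and 1.44 for Cthrc1. Against cells with at least 10 UMIs of Cxcl5 and Saa3 they were 2.39, 1.81 and 0.76. Against cells with at least 3 UMIs of Tnmd they were -1.07, -0.73 and -0.81, so that the tendon-type cells carried more of all 3. For these reasons the cells are named here only by Aspn and Postn.

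At the edge of the choice, cells whose lower count of the pair was exactly 3 numbered 12, 31 and 7 in wild-type and 118, 15 and 23 in Nlrp3-/- libraries. Cells that met every other cut with exactly 2 numbered 15, 28 and 9 in wild-type and 139, 14 and 16 in Nlrp3-/- libraries. Just inside the edge Cthrc1 was at 331, 454 and 863 CPM in wild-type and at 898, 447 and 496 CPM in Nlrp3-/- libraries. Just outside it was at 405, 343 and 97.7 CPM in wild-type and at 591, 305 and 332 CPM in Nlrp3-/- libraries. Mest was lower inside than outside in 4 of 6 libraries, at 126, 227 and 118 CPM inside against 397, 81.4 and 168 CPM outside in wild-type, and at 1078, 215 and 55.7 CPM inside against 657, 256 and 322 CPM outside in Nlrp3-/- libraries. C1qtnf3 was at 91.3, 141 and 59.1 CPM inside against 53.4, 60 and 0 CPM outside in wild-type, and at 788, 146 and 89.1 CPM inside against 528, 68.8 and 172 CPM outside in Nlrp3-/- libraries. The markers thus did not change in 1 direction at the edge.

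The genes that led the Aspn Postn fibroblasts over the other fibroblasts were counted within each library, as a description with no test. Of 3044 genes with at least 50 CPM in the higher class, 630 were higher and 644 lower in 6 of 6 libraries, with 14 and 36 of them past a median 2-fold. Rgs5, a G protein regulator of pericytes, led with a median log2 ratio of 2.33. It was followed by Dlk1 (2.03), an imprinted ligand of the Notch family, Sparcl1 (1.76), a relative of osteonectin, Notch3 (1.56), a receptor of mural cells, and Cygb (1.44), an oxygen-binding globin of fibroblasts and stellate cells. Lpl, the lipase that frees fatty acids from lipoproteins, was at 1.31 and Eln, encoding elastin, at 1.11. The lowest ratios were of cartilage genes (Snorc, Chad, Hapln1, Col11a2), the division gene Ube2c and the mineralization enzyme Alpl, whose cell types the cuts removed.

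Several of the leading genes rested on a small subset of cells. When cells with at least 3 Rgs5 UMIs were left out of both classes, the genes past 2-fold higher numbered 8 instead of 14. The median log2 ratio of Rgs5 went to 0.21, of Sparcl1 to 0.35, of Itga1 from 1.08 to 0.01 and of Col4a1 from 1.05 to -0.02. Notch3 was also far higher in the cells with Rgs5 than in the remaining Aspn Postn fibroblasts, as given below. Others moved little. Cygb stood at 1.34, Lpl at 1.26, the interferon-regulated Slfn5 at 1.18, the sodium channel Scn7a at 1.17, Eln at 1.24, and the secreted Wnt antagonists Sfrp1 and Sfrp2 at 1.02 and 1.00. Among cells of 4000 to 12000 UMIs only, where both classes have like depth, 5 genes were past 2-fold higher, with Cygb at 1.04, Eln at 0.41 and Sfrp1 at 0.49.

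**Figure D2:**
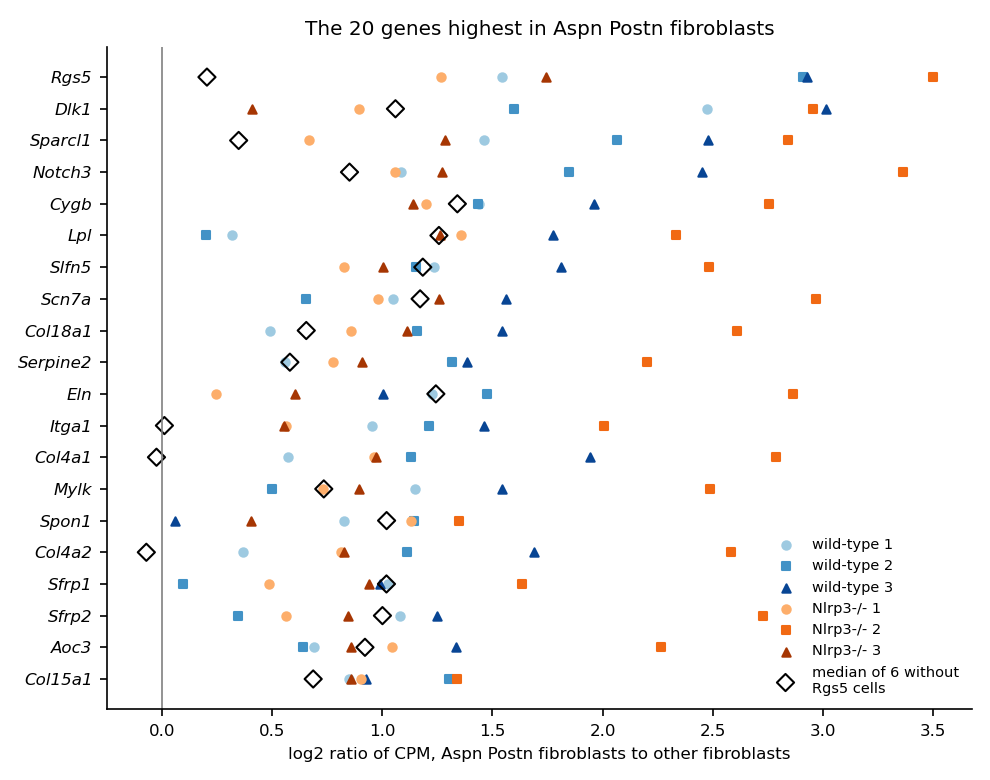
Log2 ratio of the level in Aspn Postn fibroblasts to that in the other fibroblasts of the same library, for the 20 genes with the highest median, 1 point per library, with open diamonds for the median without cells that carry Rgs5. Rgs5, Itga1, Col4a1 and Col4a2 have diamonds at 0.21, 0.01, -0.02 and -0.07, while Cygb, Lpl, Eln and Scn7a stay at 1.34, 1.26, 1.24 and 1.17.

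By gene group, the fibrillar collagens did not hold 1 direction in every library. The 10 fibrillar collagens, 3 of which define the gate, summed to 51258, 53390 and 85536 CPM in wild-type and to 73119, 83696 and 77847 CPM in Nlrp3-/- libraries. In the other fibroblasts they summed to 42886, 45378 and 93399 CPM in wild-type and to 65110, 75054 and 79513 CPM in Nlrp3-/- libraries. The sum was higher in the Aspn Postn fibroblasts in wild-type replicates 1 and 2 and in Nlrp3-/- replicates 1 and 2, and lower in the third library of either group. The 12 other collagens had a median log2 ratio of 0.41, and 9 were higher and 1 lower in 6 of 6 libraries. Over all 10381 genes of at least 5 CPM, 1940 were higher and 1331 lower in 6 of 6 libraries, with a median of 0.05. Col15a1, a basement membrane collagen, was at 0.92, or 0.69 without cells that carry Rgs5, and Col6a3, a chain of the microfibrillar collagen VI, was at 0.45.

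Among 13 elastic fibre genes, 4 were higher and none lower in 6 of 6 libraries (median 0.29), among them Eln, Mfap5 (0.75), a microfibril component, and Fbn1 (0.29), encoding fibrillin. Of 10 contractile genes, 5 were higher and none lower (median 0.63), with Tagln at 0.75 and Myl9 at 0.65. Acta2, the smooth muscle actin of myofibroblasts, was at 0.58 and higher in 5 of 6. These genes were also high in cells with Rgs5, described below, and without those cells Tagln was at 0.72, Myl9 at 0.65 and Acta2 at 0.45. Of 15 imprinted growth genes, 7 were higher and none lower (median 0.35), with the noncoding RNAs H19 at 0.70 and Meg3 at 0.59. The small leucine-rich proteoglycans other than Aspn went the opposite way, with 2 higher and 6 lower of 11 (median -0.50). Fmod, a collagen-binding proteoglycan of tendon, was at -0.97 and Dcn, encoding decorin, at -0.50.

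Inflammatory mediators were also lower, with 1 higher and 9 lower of 19 (median -0.36). Ccl2, a monocyte chemokine, was at -1.49, Il6 at -1.07 and Cxcl1 at -0.76, and the stromelysin gene Mmp3 was at -2.01. The choice removed cells rich in Cxcl5 and Saa3, in which Ccl2 was at 1053 CPM and Mmp3 at 1078 CPM, against 125 and 92.1 CPM in the Aspn Postn fibroblasts. Of 12 glycolysis and hypoxia genes, none were higher and 9 were lower (median -0.40), with Ldha at -0.51 and Eno1 at -0.57. The depth differed in the same direction, since the other fibroblasts had median depths of 4366 to 17580 UMIs, and within cells of 4000 to 12000 UMIs Ldha was at -0.19 and Eno1 at -0.21. Beyond this band, the part of depth in these ratios was not tested.

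The remaining groups are given by their counts. Of 7 fibrillar collagens outside the gate, 2 were higher and 1 lower in 6 of 6 libraries (median 0.09), and of 24 collagen processing genes 3 were higher and 6 lower (median -0.10). Matricellular proteins had 4 higher and 3 lower of 21 (median -0.06), and matrix proteases and inhibitors 9 higher and 3 lower of 19 (median 0.12), with the gelatinase Mmp2 at 0.32. TGF-beta genes had 4 higher and 1 lower of 14 (median 0.08), with Tgfbr2 at 0.49. BMP genes had 2 higher and 3 lower of 13 (median 0.08), Wnt genes 5 higher and 1 lower of 13 (median 0.26), and PDGF, IGF and FGF genes 5 higher and none lower of 15 (median 0.13). Secretory pathway genes had 0 higher and 9 lower of 17 (median -0.11). IL-1 and inflammasome genes had 2 higher and none lower of 11 (median 0.18), progenitor genes 2 higher and 1 lower of 9 (median 0.12), and hedgehog genes 2 higher and 1 lower of 4 (median -0.60). None of 11 immediate-early genes and none of 7 macrophage markers held 1 direction in 6 of 6. The choice bears on the tendon genes (1 higher and 4 lower of 8, median -0.91), cartilage genes (3 lower of 10, median -2.21) and bone genes (3 lower of 5, median -2.75), since cells with Tnmd, Col2a1 or bone genes were removed.

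The subset with at least 3 Rgs5 UMIs numbered 17, 35 and 37 cells in wild-type and 61, 65 and 63 cells in Nlrp3-/- libraries. It made up 5.65%, 6.99% and 11.1% of the Aspn Postn fibroblasts in wild-type and 5.23%, 17.7% and 6.70% in Nlrp3-/- libraries. Nlrp3-/- replicate 2 stood highest, and the groups overlapped. The same threshold was passed by 2.00% to 3.6% of the other fibroblasts. In the subset Rgs5 was at 6984 CPM, against 5.25 CPM in the remaining Aspn Postn fibroblasts, and was the gene that chose it. Genes not used in that choice separated the cells as well. The smooth muscle myosin Myh11 was at 201 against 1.13 CPM, the potassium channel Kcnj8 at 227 against 1.45 CPM, Notch3 at 627 against 12.5 CPM, and Col4a1, a basement membrane collagen, at 2984 against 74.8 CPM.

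These cells carried more of some matrix genes, Col4a1 and Col18a1 (1674 against 139 CPM) among them, and less of others. Col1a1 was at 8263 against 25961 CPM and Postn at 1866 against 6376 CPM. C1qtnf3 was at 82.8 against 1328 CPM, Mest at 78.2 against 1230 CPM and Cthrc1 at 111 against 1681 CPM. Pdgfra, a receptor of fibroblasts, was at 18.8 against 155 CPM, while Pdgfrb, shared by fibroblasts and pericytes, was at 741 against 173 CPM. The tendon factor Scx was at 4.35 against 163 CPM, and the growth factor Igf1 at 39.1 against 1036 CPM. The subset therefore matched the list of pericyte and smooth muscle markers rather than the 3 proposed markers, although every one of its cells held at least 3 UMIs each of Aspn and Postn. The 6 pericyte and smooth muscle markers summed to 437, 516 and 880 CPM in wild-type and 439, 1694 and 606 CPM in Nlrp3-/- libraries over all Aspn Postn fibroblasts. That sum includes Rgs5, the gene that chose the subset, so it is not separate evidence on the subset.

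Variation among cells of 1 library was measured at 2000 UMIs per cell as the variance over that expected from counting alone. Over 552 genes not used in the choice, the median of this ratio was 1.22. It was highest for Malat1 (27.0), a nuclear noncoding RNA, then Rgs5 (20.4), the phosphoprotein gene Spp1 (10.2), the mineralization inhibitor Mgp (9.0) and Acta2 (8.93). Apoe, a lipid carrier gene of macrophages and fibroblasts, was at 7.41, and Lyz2, a lysozyme gene of macrophages, was at 6.5 with a range from 1.19 in Nlrp3-/- replicate 2 to 12.7 in Nlrp3-/- replicate 1. C1qtnf3, Mest and Cthrc1 had ratios of 3.67, 4.83 and 3.01, so their levels also spread beyond counting noise.

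Which genes moved together was described in a stricter set of 266 to 851 cells per library, of at least 4000 UMIs, under 3 Rgs5 UMIs, at most 0.1% of UMIs in macrophage markers and at most 0.5% in the markers of 5 other cell types. Correlations across the cells of 1 library, over 482 genes, share that library, its depth and its free RNA. C1qtnf3 went with the tendon and matrix genes Fmod (median r over 6 libraries 0.57), Col11a1 (0.52), Cthrc1 (0.52), Tnn (0.50) and Thbs2 (0.47). It also went with Aspn (0.55), which is bounded by the choice. It went against Ifitm3 (-0.43), Ly6a (-0.37), a surface marker of progenitor-type fibroblasts, and the complement gene C3 (-0.35). Cthrc1 went with C1qtnf3, Tnn (0.45) and Col12a1 (0.45), and against C3 (-0.46), the complement regulator Serping1 (-0.44) and the chemokine Cxcl12 (-0.39).

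Mest had other genes at the head of its list. It went with Itm2a (0.46), H19 (0.43), Ogn (0.40), Smoc2 (0.40) and Igf1 (0.39), and neither C1qtnf3 nor Cthrc1 was among its 8 highest.

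The comparison the study was built for asks how the absence of Nlrp3 changes these cells. UMIs of Nlrp3 itself were few in Aspn Postn fibroblasts, at 4.21, 6.26 and 2.54 CPM in the wild-type libraries (66 UMIs in all). In near-empty barcodes, which hold free RNA, its mean over the 6 libraries was 72.1 CPM, so these UMIs are not read as expression by the fibroblasts. It had 0 UMIs in each Nlrp3-/- library, a fall of at least 9.72-fold if each such library is granted 3 counts. The edgeR adjusted p was 0.055. UMI sums per library were tested with the edgeR quasi-likelihood test over 11995 genes, adjusted by Benjamini-Hochberg with a threshold of 0.05. Of these, 16 genes were called, 5 higher and 11 lower in Nlrp3-/- libraries, which is 0.133% of the genes tested, and 1853 had an unadjusted p under 0.05. In the other fibroblasts 16 of 14528 genes were called, which is 0.110%. A test of the difference between both effects called 0 of 14010 genes in edgeR (0.0%), with 381 at an unadjusted p under 0.05, and 2 in DESeq2. No gene was thus shown by edgeR to respond differently in the Aspn Postn fibroblasts.

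Of the 16 called genes, 6 lie on the sex chromosomes. Xist, the RNA of the inactive X chromosome, was at 0, 0.17 and 0.20 CPM in wild-type and at 1022, 1023 and 849 CPM in Nlrp3-/- libraries. Its overlapping antisense partner Tsix was also called, and their reads may not be separable. The Y-linked Ddx3y was at 48.4, 49.7 and 65.5 CPM in wild-type libraries and at 0 in Nlrp3-/- libraries, at least 122-fold lower. Eif2s3y, Kdm5d and Uty were at least 58.3-fold, 30.9-fold and 26.0-fold lower. Sex and genotype followed the same division of the libraries and cannot be told apart in any comparison of the groups, above or below.

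Another 2 called genes, Lyrm7 and 2610507I01Rik, lie within 20 Mb of Nlrp3 on chromosome 11, where 354 of the genes tested lie. Lyrm7, a mitochondrial assembly factor (GRCm38 chr11:54826866-54860916), was at 8.15, 5.58 and 6.85 CPM in wild-type and at 0.52, 0.46 and 0.68 CPM in Nlrp3-/- libraries. Its call was lost without Nlrp3-/- replicate 3, and that of 2610507I01Rik without any 1 of wild-type replicates 1 and 2 or Nlrp3-/- replicates 1 and 3. The remaining 8 lie elsewhere, with Nmnat1, Per3 and Col9a2 all on chromosome 4. Tpm3-rs7 (chr14:113314608-113316754) was at 76.2, 42.4 and 103 CPM in wild-type and at 1.18, 0.69 and 1.88 CPM in Nlrp3-/- libraries, but it is a near copy of Tpm3 and its level is uncertain. The same holds for Gm8797 (chr3:5750806-5751295), which was higher by 3.28 on the log2 scale.

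Nmnat1, a nuclear enzyme of NAD synthesis (chr4:149467572-149485202), was at 28.7, 19.3 and 17.2 CPM in wild-type and at 3.14, 4.37 and 4.02 CPM in Nlrp3-/- libraries, a 6.04-fold fall (log2 -2.59, SE 0.25, edgeR adjusted p = 0.0061). Without Nlrp3-/- replicate 3 its edgeR adjusted p was 0.068. Wdfy1, an endosomal adaptor of Toll-like receptor signalling, fell from 55.2, 47.2 and 74.7 CPM to 20.8, 14.7 and 18.5 CPM (log2 -1.79, SE 0.20, edgeR adjusted p = 0.013). That call was lost without wild-type replicate 1 and without Nlrp3-/- replicate 3. Col9a2, a chain of the cartilage collagen IX (chr4:121039385-121055322), rose from 8.94, 7.61 and 10.8 CPM to 30.1, 23.5 and 32.0 CPM (log2 1.56, SE 0.20, edgeR adjusted p = 0.026). It was the matrix gene among the calls, and its call was lost without any 1 of wild-type replicates 1 and 2 or Nlrp3-/- replicates 1 and 3, and among cells of 4000 to 12000 UMIs. Gm42047, a predicted noncoding gene, was higher by 1.26, a call lost in 12 of 21 alternatives.

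Genes that came next by p, listed only where the groups did not overlap, did not pass the threshold. Tmem158 was at 18.7, 16.6 and 19.8 CPM in wild-type and at 35.6, 49.9 and 49.8 CPM in Nlrp3-/- libraries (edgeR adjusted p = 0.054). The membrane gene Tspan4 was at 234, 213 and 156 CPM in wild-type and at 91.4, 86.2 and 107 CPM in Nlrp3-/- libraries (edgeR adjusted p = 0.071). Itgb3bp, a centromere protein gene, Hhipl1 and Ifi205 were lower by 1.10, 0.88 and 1.34 on the log2 scale, and Zfp395 and Ypel2 higher by 0.81 and 1.08. Among X-linked genes that escape inactivation, Kdm6a was higher by 1.13, Eif2s3x by 1.03 and Kdm5c by 0.78. Hbb-bs, a globin gene of red cells, was at 6.57, 1.69 and 0.98 CPM in wild-type and at 62.0, 730 and 75.5 CPM in Nlrp3-/- libraries, and the 5 erythroid markers summed to 3.33 to 16.3 CPM against 109 to 1216 CPM.

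Lack of overlap alone was common. Over the genes tested, 1983 were higher in every Nlrp3-/- library than in every wild-type library (16.5%) and 669 were lower (5.58%). These counts are on plain CPM, on which the median log2 difference of genes of at least 20 CPM was 0.11, against 0.01 in the TMM-scaled fit. On TMM-scaled CPM 1240 were higher (10.3%) and 1167 lower (9.73%), so the excess of higher genes depended on the scaling. In the fit, an unadjusted p under 0.05 was found for 819 higher and 1033 lower genes. The gene groups below are counted on plain CPM and read against these shares and against the median log2 fold change of all genes, 0.03.

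For the matrix, no fibrillar collagen outside the gate was called, 0 of 7 had no overlap, and their median log2 fold change was 0.12. Col1a1 was at 15224, 15567 and 31624 CPM in wild-type and at 28540, 27296 and 28662 CPM in Nlrp3-/- libraries, and is a gene of the gate. Col12a1, which decorates collagen fibrils, was at 671, 704 and 1580 CPM in wild-type and at 1312, 1406 and 1220 CPM in Nlrp3-/- libraries. Thbs2, a matricellular antagonist of angiogenesis, was at 663, 695 and 1514 CPM in wild-type and at 1353, 1027 and 1474 CPM in Nlrp3-/- libraries. In each of these, wild-type replicates 1 and 2 were alike and low, and wild-type replicate 3 was above every Nlrp3-/- library.

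Wild-type replicate 3 stood apart from the rest of its group, in the matrix about as often as among all genes. It lay nearer to the Nlrp3-/- mean than to the mean of wild-type replicates 1 and 2 in 66 of 90 matrix genes (73.3%), including 10 of 10 fibrillar collagens and 18 of 21 matricellular genes, but in only 10 of 23 collagen folding and processing genes (43.5%). These matrix counts include genes of the choice, namely Col1a1, Col1a2, Col3a1, Postn and Aspn, and a tally without them was not made. Across 5960 genes of at least 20 CPM, wild-type replicate 3 lay nearer to the Nlrp3-/- mean for 4183 (70.2%). Wild-type replicates 1 and 2 were the most alike of all 15 pairs, with a standard deviation of 0.204 for the log2 difference over these genes, against 0.282 to 0.618 for the other pairs. They shared no member barcode, and their counts differed by more than counting noise (chi-square of 2.59 per gene), so they were kept as 2 libraries as labelled. These values do not show whether they came from separate animals. Without wild-type replicate 3, 1308 genes were called instead of 16, and these calls rest on a wild-type group of that pair alone. The labels do not say what that library shares or does not share with the others.

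**Figure D3:**
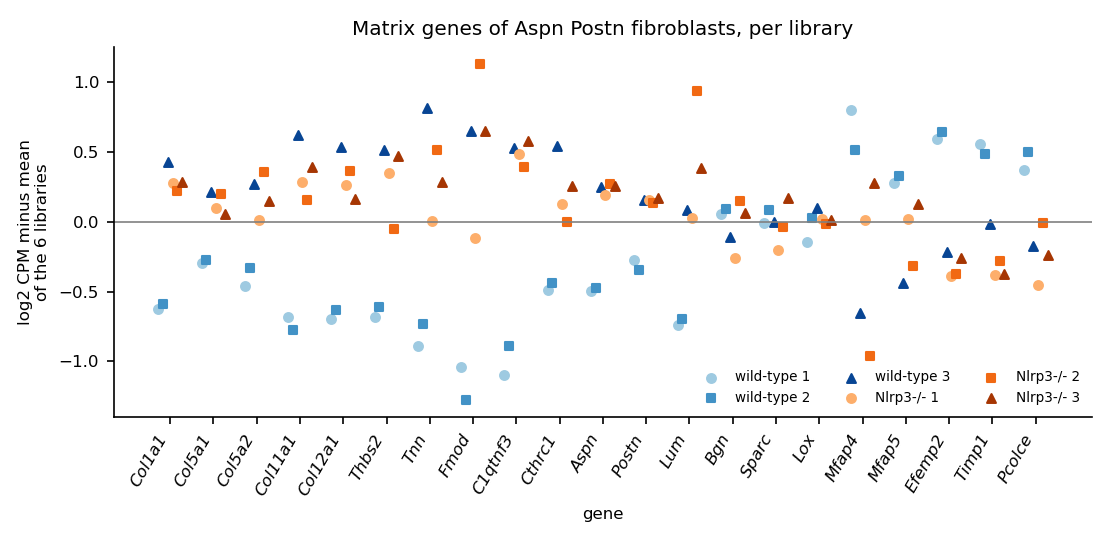
Level of 21 matrix genes in each library, as log2 CPM minus the mean over the 6 libraries. For Col1a1, Col5a1, Col5a2, Col11a1, C1qtnf3, Cthrc1, Col12a1 and Thbs2, wild-type replicates 1 and 2 sit below 0 and wild-type replicate 3 sits with or above the Nlrp3-/- libraries.

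Collagen processing genes gave no call, with 2 of 23 higher and 5 lower without overlap (median -0.17). Fkbp10, a collagen chaperone, was at 346, 349 and 295 CPM in wild-type and at 239, 240 and 252 CPM in Nlrp3-/- libraries (log2 -0.54, edgeR adjusted p = 0.24). The lysyl hydroxylase Plod3 and the lysyl oxidases Loxl2 and Loxl3 were lower by 0.38, 0.43 and 0.31. Timp1, an inhibitor of matrix proteases, was at 1600, 1525 and 1075 CPM in wild-type and at 837, 896 and 841 CPM in Nlrp3-/- libraries (log2 -0.81, edgeR adjusted p = 0.21). Efemp2, needed for elastin assembly, was at 269, 278 and 154 CPM in wild-type and at 136, 137 and 149 CPM in Nlrp3-/- libraries (edgeR adjusted p = 0.25).

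Among 9 cartilage genes, 4 were higher without overlap and none lower (median 0.80), although none of the 4 was called. On TMM-scaled CPM 2 were higher without overlap. Matn3, a cartilage matrix protein, was at 4.73, 3.55 and 9.0 CPM in wild-type and at 9.69, 18.6 and 13.2 CPM in Nlrp3-/- libraries. The cartilage regulators Sox5 and Sox6 were higher by 0.47 and 1.43, and Chad by 2.31, from under 5 CPM in each library for Chad and Sox6. Of 8 tendon genes tested, none was called and none lacked overlap (median 0.09). The choice had removed cells with Tnmd or with 5 or more UMIs of Col2a1, in unequal parts of the libraries. The counts of tendon and cartilage genes therefore cover only the cells left.

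Of 16 PDGF, IGF and FGF genes, 5 were higher without overlap and none lower (median 0.23), and none was called. Pdgfra was at 116, 130 and 134 CPM in wild-type and at 154, 187 and 142 CPM in Nlrp3-/- libraries. Tgfbr2, a TGF-beta receptor, was at 169, 149 and 146 CPM in wild-type and at 246, 198 and 230 CPM in Nlrp3-/- libraries (edgeR adjusted p = 0.26). Contractile genes had 3 of 10 lower without overlap and none higher (median -0.19), with Tpm2, a tropomyosin, at 682, 689 and 644 CPM in wild-type and at 480, 353 and 534 CPM in Nlrp3-/- libraries (edgeR adjusted p = 0.25). Acta2 overlapped between the groups (log2 -0.15).

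The receptor for IL-1, the cytokine released through the NLRP3 inflammasome, was expressed in both groups, which overlapped. Il1r1 was at 151, 140 and 104 CPM in wild-type and at 126, 175 and 148 CPM in Nlrp3-/- libraries (log2 0.08, SE 0.18, edgeR adjusted p = 0.85). Of 19 inflammatory mediators, none was called, 1 was higher and 2 were lower without overlap (median -0.19). The choice had removed cells rich in Cxcl5 and Saa3, a larger share of fibroblasts in wild-type than in Nlrp3-/- libraries. This count therefore covers only the cells left and does not bear on the mediators of fibroblasts as a whole. The neutrophil chemokine Cxcl1 was at 159, 210 and 130 CPM in wild-type and at 88.1, 59.8 and 108.7 CPM in Nlrp3-/- libraries (log2 -1.05, edgeR adjusted p = 0.23). Macrophage markers had log2 fold changes above 0 for 8 of 8 genes (median 0.82), with none called, and summed to 135 to 432 CPM in wild-type and to 131 to 1177 CPM in Nlrp3-/- libraries, with Nlrp3-/- replicate 1 highest.

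In the other lists no gene was called. Without overlap, 1 of 12 other collagens was higher and none lower (median log2 fold change 0.26), 1 of 10 small leucine-rich proteoglycans was higher (median 0.15), and 1 of 20 matricellular genes was higher (median 0.01). Of 13 elastic fibre genes 1 was lower (median -0.03), of 14 TGF-beta genes 2 were higher (median 0.10) and of 12 BMP genes 2 were lower (median -0.02). Matrix proteases and inhibitors had 3 of 19 higher and 1 lower (median 0.16), imprinted genes 3 of 15 higher and 1 lower (median 0.09), and Wnt genes 1 of 15 higher (median 0.05). IL-1 and inflammasome genes had 1 of 12 higher and 3 lower (median -0.28), progenitor genes 1 of 9 higher and 1 lower (median -0.21), and secretory genes 2 of 17 in each direction (median 0.02). A fall of Nlrp3 itself in such a list is fixed by the knockout. Glycolysis genes had 2 of 12 higher (median 0.02), immediate-early genes 1 of 11 lower (median 0.07), and 6 hedgehog genes and 3 bone genes had none in either direction (medians 0.14 and 0.01). On TMM-scaled CPM several of these counts shifted toward lower genes. Collagen processing then had 1 higher and 7 lower, the PDGF, IGF and FGF genes 2 higher in place of 5, IL-1 and inflammasome genes 1 higher and 4 lower, and glycolysis genes none. The counts of bone and progenitor genes cover only the cells left by the choice, which had removed cells with bone genes, Pi16 or Dpp4.

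Markers of other cell types were low beside the matrix genes. Neutrophil markers, which include S100a8 and S100a9 limited by the gate, summed to 355 to 1056 CPM. Endothelial markers summed to 7.83 to 30.2 CPM with Cdh5 at 0 by the choice. Lymphocyte markers summed to 4.11 to 14.5 CPM, Schwann cell markers to 6.92 to 12.2 CPM and muscle markers to 0.20 to 4.45 CPM. Synovial lining markers summed to 147, 154 and 194 CPM in wild-type and to 116, 121 and 130 CPM in Nlrp3-/- libraries, lower without overlap. That sum includes Prg4, which the choice limited, so it describes the choice in part and no difference is read from it. Adipocyte markers summed to 38.9, 84.9 and 72.6 CPM in wild-type and to 107, 158 and 117 CPM in Nlrp3-/- libraries, higher without overlap. Of these 5 markers only Lpl, a leading gene of these cells, was abundant enough to be tested (log2 0.89, edgeR adjusted p = 0.25). In Aspn Postn fibroblasts without Rgs5, Lpl was at 81.4 CPM, while Plin1 was at 0.20 CPM and Car3 at 0.81 CPM. None of their genes was called between the genotypes.

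The called genes also held 2 of the circadian clock, Dbp and Per3, and the other clock genes were then listed after these values had been seen. In the clock, Arntl with Clock or Npas2 binds E-box sequences and switches on the output genes and its own repressors, and the PAR bZIP factors Dbp, Tef and Hlf bind D-box sequences. Dbp (chr7:45705088-45710203) was at 45, 38.4 and 64.8 CPM in wild-type and at 5.37, 8.28 and 8.55 CPM in Nlrp3-/- libraries, a 7.12-fold fall (log2 -2.83, SE 0.25, edgeR adjusted p = 0.0042). Per3, a clock repressor (chr4:151003652-151044665), was at 19.5, 16.9 and 23.5 CPM in wild-type and at 5.63, 5.29 and 6.49 CPM in Nlrp3-/- libraries (log2 -1.85, SE 0.19, edgeR adjusted p = 0.0067). Dbp was called in 21 of 21 alternatives and Per3 in 20 of 21, the exception being the fit without Nlrp3-/- replicate 3.

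Of the other 11 clock genes none passed the threshold, and 4 overlapped between the groups. Arntl was at 5.78, 9.30 and 3.33 CPM in wild-type and at 25.5, 32.4 and 26.0 CPM in Nlrp3-/- libraries (log2 2.05, SE 0.31, edgeR adjusted p = 0.061). Clock and Npas2 were higher by 0.65 and 1.3, so that 3 of 3 activators had no overlap. The repressor gene Nr1d2 was at 38.4, 41.8 and 77.1 CPM in wild-type and at 21.1, 20.2 and 21.7 CPM in Nlrp3-/- libraries (log2 -1.41, edgeR adjusted p = 0.11). Per2, Tef and Ciart were lower by 1.18, 1.03 and 1.51 without overlap, while Hlf, Per1, Bhlhe41 and Nr1d1 were the 4 that overlapped.

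In all, 6 of 10 output and repressor genes were lower without overlap, counting Dbp and Per3, which had prompted the list, with a median log2 fold change of -1.23, and the activators had a median of 1.3. In the other fibroblasts the medians were -0.94 and 1.32. The difference between both classes of fibroblast was -0.12 for Dbp (SE 0.19), so this pattern was not shown to be particular to the Aspn Postn fibroblasts. Wild-type replicate 3, which lay nearer to the Nlrp3-/- mean for most genes, lay with its own group for Dbp, Per3 and Arntl. Those genes were singled out because they were called or did not overlap, which fixes that position, so nothing is read from it. The labels give no hour of collection, and time of day and genotype cannot be told apart.

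**Figure D4:**
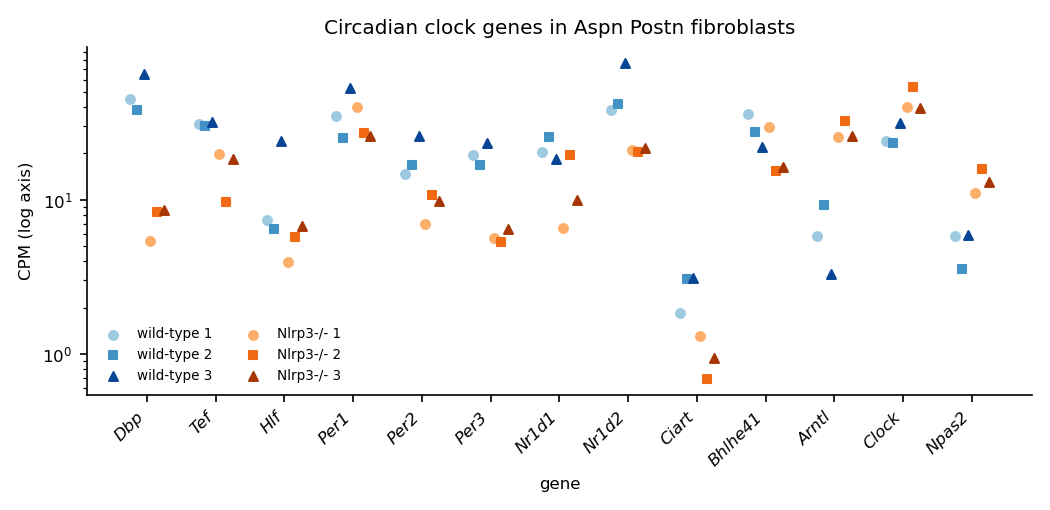
Level in CPM on a log axis of 13 clock genes in the Aspn Postn fibroblasts, 1 point per library. Dbp, Per3, Per2, Nr1d2, Tef and Ciart lie lower and Arntl, Clock and Npas2 higher in all 3 Nlrp3-/- libraries, while Hlf, Per1, Nr1d1 and Bhlhe41 overlap.

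Because E-boxes and D-boxes tie these genes together, the promoters of the clock genes were searched over 250 bases before the annotated start, on both strands (RefSeq, GRCm38.p6, 12 of 13 genes with an entry). The D-box TTATGTAA occurred in 269 of 32851 promoters (0.819%) and at least 2 copies in 6 (0.0183%). The E-box CACGTG occurred in 1978 promoters (6.02%) and at least 3 copies in 20 (0.0609%). The motifs do not overlap each other in the sequences shown. Per3 held 2 D-boxes, which begin 205 and 158 bases before the start, and Ciart held 3 E-boxes, which begin 116, 58 and 44 bases before it. Both are shown with motifs in capitals, because they were the clock promoters with the most copies. Per3 lies at chr4:151044666-151044915 and Ciart at chr3:95882229-95882478, both read 5′ to 3′ on the minus strand.
Per3: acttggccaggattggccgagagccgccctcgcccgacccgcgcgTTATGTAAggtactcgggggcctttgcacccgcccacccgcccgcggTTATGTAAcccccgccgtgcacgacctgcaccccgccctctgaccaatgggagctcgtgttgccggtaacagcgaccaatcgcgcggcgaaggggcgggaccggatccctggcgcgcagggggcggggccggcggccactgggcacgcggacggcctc
Ciart: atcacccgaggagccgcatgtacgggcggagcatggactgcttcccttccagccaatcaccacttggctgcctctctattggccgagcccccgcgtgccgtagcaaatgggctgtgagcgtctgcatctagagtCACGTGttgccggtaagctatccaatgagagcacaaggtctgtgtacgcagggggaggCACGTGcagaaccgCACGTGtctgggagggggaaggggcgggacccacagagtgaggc
Tef had 1 E-box before each of its 2 starts, and Per1 and Bhlhe41 had 1 each. Neither sequence was found in these windows of Dbp, Arntl, Npas2, Clock, Hlf, Nr1d1 or Nr1d2. A match in this window describes the letters there and does not show binding.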

How the data were processed

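Single cell libraries were deposited by the authors as unfiltered matrices of raw UMI counts per gene and barcode, before cell calling and with no normalization (1860994 to 2312336 barcodes per library). The file headers name Cell Ranger 4, while the submitters' processing notes list Cell Ranger 2.1.1 and build mm10. The strand setting of the counting was not given in the sources used here. Gene positions came from GENCODE M21, which matched 32235 of 32285 gene IDs.

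The cells and gene lists were chosen with earlier results of these data known. No doublet caller was run, and only the cuts of the choice and the repeats without contaminated cells bear on doublets. UMI counts were summed over the chosen cells of each library and tested with edgeR 4.0.16 (R 4.3.3; TMM, filterByExpr, quasi-likelihood test, Benjamini-Hochberg adjustment), and the difference between cell classes was tested with a library block. DESeq2 1.42.0 was an alternative. Shares were compared by exact permutation (scipy 1.17.1). On simulated data 73% of 2-fold and 100% of 4-fold differences were recovered for the genotype comparison (11833 genes), with 11 false calls. The changed genes had at least 20 CPM, and each count was drawn independently around a common mean. These rates therefore do not cover lower genes or a shift of many genes in 1 library, such as that of wild-type replicate 3. Lower limits of fold allow 3 counts per library, and intervals and limits cover counting error only. Library totals were 97042713 to 134901999 UMIs.

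Named genes were up to 10 higher and 10 lower by size of change among those called, with at least 20 CPM in 1 group and no overlap, filled by p. Genes of the choice and predicted symbols were left out. Other genes came from the lists, and clock genes, Gm8797, Lyrm7, Per3, 2610507I01Rik, Tsix and Gm42047 were added where the rule did not name them.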

Additional observations from a re-analysis of the deposited data

How the results depend on the processing

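The 16 genes called between the genotypes in the Aspn Postn fibroblasts became 110 with no filter on low counts, 202 with DESeq2, 26 at 4000 UMIs or more and 25 in the strict set of cells, and 9 to 1308 when 1 library was left out. The lowest was without Nlrp3-/- replicate 3 and the highest without wild-type replicate 3. The 16 genes of the other fibroblasts became 152 with DESeq2 and 5 to 10 with 1 library left out. The difference between both classes gave 2 genes with DESeq2, 1 among cells of 4000 to 12000 UMIs, and 0 to 2 with 1 library left out, namely 1 without Nlrp3-/- replicate 1 and 2 without Nlrp3-/- replicate 2. The 14 genes past 2-fold higher than in the other fibroblasts became 5 at 4000 to 12000 UMIs and 10 to 20 with 1 library left out. No called genotype difference reversed in sign. Without cells with Rgs5, the ratios of Col4a1 and Col4a2 to the other fibroblasts went from 1.05 to -0.02 and from 0.97 to -0.07. The cause of these shifts was not tested. The band of 4000 to 12000 UMIs, the repeats without cells with Rgs5 or macrophage markers, the strict set and the TMM-scaled count of genes without overlap were chosen after seeing the data.

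Replicate numbers did not pair the libraries, since the correlations of same-numbered deviations were 0.158, -0.154 and -0.0438. With the replicate block, 30 genes were called in the Aspn Postn fibroblasts and 3 in the other fibroblasts.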
